A study of Zea mays with 4 samples.

Results

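The genes described here are the 9 maize cellulose synthase genes CesA-1 to CesA-9, assigned to primary walls, and bk4, a brittle stalk gene. They were picked by name: a GeneID was taken when CesA-1 to CesA-9 stood among its NCBI maize symbols or synonyms, and bk4 is GeneID 100274504. All 10 names were found once each among the 48174 genes in the files. The rule uses names only, although these genes were proposed with earlier results of these data known. The samples are root tips of the inbred line B73, cut from untreated seedlings aged 3 days that grew at 28 °C in steady dim light of about 500 lux. Each sample pools the last 1 mm of primary and of seminal roots, so the root types cannot be told apart. There are 4 biological replicates of this 1 group and no second condition, which leaves comparisons between genes within libraries, with the replicates as the error.

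Cellulose is spun at the plasma membrane by complexes of cellulose synthase proteins, which draw on UDP-glucose and extrude glucan chains that bundle into microfibrils. In Arabidopsis a complex holds several different isoforms, and separate sets of isoforms serve the primary wall of growing cells and the secondary wall laid down after growth stops. In maize the products of CesA10, CesA11 and CesA12 are the secondary wall set. The maize gene bk4 encodes a chitinase-like protein, and its mutants have brittle stalks. In Arabidopsis chitinase-like proteins of this kind are needed for normal cellulose deposition. A root tip holds the meristem and the root cap, where cells divide and build primary walls.

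The libraries held between 9168397 counts (replicate 2) and 14728175 counts (replicate 1), and all levels below are CPM, the counts of a gene per 1e6 counts of its library. CPM is a level in reads that is not corrected for transcript length, because no transcript length was at hand; a ratio between genes is therefore one of reads and not of molecules. The defining root cap genes RCP1 and RCP2 were present at 201 ± 37.2 and 162 ± 17.7 CPM (SD, n = 4), and all 5 DNA synthesis markers and the root hair gene rth3 were expressed. The Casparian strip gene ZmCASP1 had no count in any library and ZmCASP2 had 7 counts over all 4. Of 10 zein genes of the seed 9 had no count. Of 13 genes linked to leaf photosynthesis 3 were expressed, Ppdk1 at 60.0 ± 20.6, me3 at 5.83 ± 0.45 and lhcb7 at 3.45 ± 1.13 CPM. The gene rbcs1 had 0 counts. Among all 48174 genes in the files 21039 were expressed. Replicate 2 was the shallowest library, and results that rest on it are also given without it.

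All 10 members passed the expression filter. CesA-2 (GeneID 542564) had the highest mean read level of the family and the highest level in each library except replicate 2, with 298, 186, 307 and 252 CPM in replicates 1 to 4. CesA-9 (GeneID 541807) had 272, 204, 279 and 245 CPM in the same libraries. CesA-8 (GeneID 541806) had 235, 179, 236 and 205 CPM. These 3 synthase genes form the upper tier: replicate 2 was the lowest library for each, and the values of any 2 of them overlapped.

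A middle tier held CesA-4, CesA-6, CesA-1 and bk4. CesA-4 (GeneID 542624) had 124, 91.6, 144 and 136 CPM in replicates 1 to 4, and CesA-6 (GeneID 541804) had 117, 97.2, 115 and 115 CPM. CesA-1 (GeneID 541802) had 109, 78.4, 104 and 94.9 CPM. The chitinase-like gene bk4 had 78.1, 72.9, 99.5 and 90.4 CPM and was the one member of this tier with a low value in replicate 1 as well as in replicate 2. Every value of the middle tier lay below every value of the upper tier, and within the tier the values of all pairs overlapped.

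The lower tier held the remaining synthase genes. CesA-7 (GeneID 541805) had 48.5, 30.9, 50.7 and 43.1 CPM in replicates 1 to 4, and CesA-5 (GeneID 541803) had 41.2, 30.5, 35.4 and 40.3 CPM. CesA-3 (GeneID 542489) was the lowest, with 25.3, 19.5, 17.4 and 22.2 CPM, and it was the only member whose lowest library was replicate 3. The values of CesA-7 and CesA-5 overlapped, whereas those of CesA-3 lay below both. In mean CPM the family spanned 12.4-fold, from CesA-2 at 261 ± 55.4 CPM to CesA-3 at 21.1 ± 3.38 CPM (SD, n = 4).

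**Figure D1:**
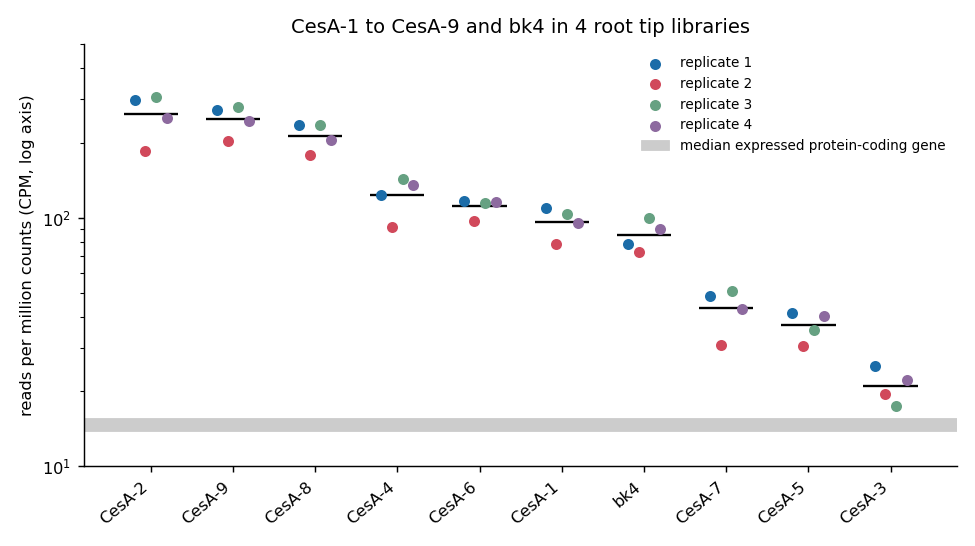
Read level (CPM, log axis) of CesA-1 to CesA-9 and bk4 in each of 4 root tip libraries, ordered by mean, with black lines for the means and a grey band from the lowest to the highest of the libraries' median expressed protein-coding genes (13.9 to 15.5 CPM). The upper tier of CesA-2, CesA-9 and CesA-8 lies between 179 and 307 CPM, and CesA-3 lies closest to the grey band.

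The order of the members was compared in all 45 pairs. In 43 pairs the same gene was higher in 4 of 4 libraries. The exceptions were CesA-2 and CesA-9, a mean difference of 0.04 ± 0.13 log2 units (SD, n = 4) with CesA-2 higher in 3 of 4 libraries, and CesA-4 and CesA-6, a mean difference of 0.14 ± 0.18 with CesA-4 higher in 3 of 4. In both pairs replicate 2 was the library with the other order. Of the 9 neighbours in the order of means, 3 did not overlap: CesA-8 was 1.74-fold above CesA-4, bk4 was 1.99-fold above CesA-7 and CesA-5 was 1.75-fold above CesA-3. CesA-9 exceeded CesA-8 by a small but steady 0.22 ± 0.03 log2 units, in 4 of 4 libraries, although their values overlap across libraries. No pair could pass a two-sided exact sign-flip permutation test, since 4 libraries allow no p below 0.125 and the smallest value adjusted over the 45 pairs was 0.131.

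Set against the rest of the transcriptome, all 10 members had more reads than the median gene, 9 of them by more than 2-fold in the test. Each gene was tested with edgeR's quasi-likelihood model for a more than 2-fold difference from its library's median among expressed protein-coding genes, here called the median gene, with p-values adjusted by the Benjamini-Hochberg method over 21039 genes. Beyond the upper 2-fold bound lay 8 of the 9 synthase genes and bk4, where 25.6% of all genes tested did, and beyond the lower bound lay 0 members, where 26.9% of all genes did; genes past these bounds are said below to lie above or below the median gene. The median log2 ratio was 2.82 over the 10 members and -0.07 over all genes tested. Long transcripts collect more reads, which was not corrected, so the counts are a description of these named genes.

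CesA-2 stood at a log2 ratio of 4.15 ± 0.11 (SE, edgeR adjusted p = 3.11e-15), which is 17.8 times the reads of the median gene. CesA-9 stood at 4.09 ± 0.09 (SE, edgeR adjusted p = 6.49e-16) and CesA-8 at 3.87 ± 0.09 (SE, edgeR adjusted p = 1.98e-15). These upper-tier genes ranked 542, 570 and 697 by mean CPM among 19603 expressed protein-coding genes.

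In the middle tier CesA-4 had 8.43, CesA-6 7.59, CesA-1 6.60 and bk4 5.82 times the reads of the median gene. The highest of their edgeR adjusted p-values was 3.56e-11, for bk4, whose log2 ratio was 2.54 ± 0.09 (SE). With the upper tier, 6 synthase genes lay in the top 10% of expressed protein-coding genes by reads, and bk4 ranked 2016, just outside it.

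In the lower tier CesA-7 had 2.96 times the reads of the median gene (edgeR adjusted p = 6.24e-05) and CesA-5 had 2.52 times (edgeR adjusted p = 0.00159). CesA-3 did not pass, at a log2 ratio of 0.53 ± 0.09 (SE, edgeR adjusted p = 1). It was nearer to the median gene than any other member, and its log2 ratio was positive in 4 of 4 libraries, between 0.27 and 0.78. Where any difference from the median gene was tested, with no 2-fold bound, CesA-3 passed at an edgeR adjusted p of 3.80e-05, and 44.3% of all genes then lay above. The 9 members called above kept that call without any 1 of the 4 libraries.

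**Figure D2:**
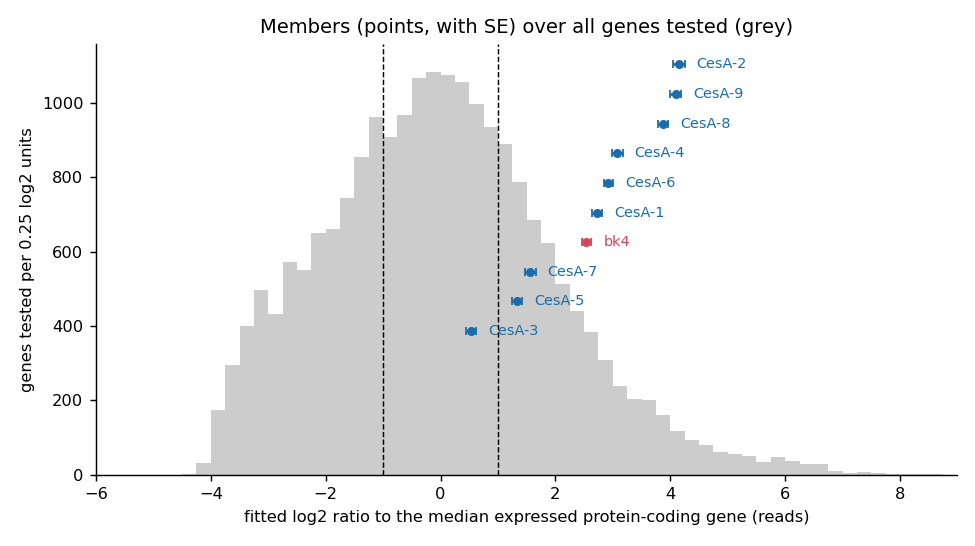
Fitted log2 ratio of reads to the median expressed protein-coding gene for the 9 synthase genes (blue) and bk4 (red), with SE bars, over a histogram of all 21039 genes tested (grey, left axis); the height of the points only separates their labels. Dashed lines mark the 2-fold bounds, and CesA-3 at 0.53 is the only member between them.

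The synthase genes together drew 1270, 917, 1288 and 1153 CPM in replicates 1 to 4. This pool was unequally divided. CesA-2 took 22.4 ± 1.63%, CesA-9 took 21.6 ± 0.41% and CesA-8 took 18.5 ± 0.75% of it (SD, n = 4), so that 3 of the 9 genes held 62.5 ± 1.35% of the reads. CesA-4, CesA-6 and CesA-1 together held 28.7 ± 1.09%, and CesA-7, CesA-5 and CesA-3 together 8.77 ± 0.50%.

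The division was broadly alike in the 4 libraries, although some shares were less steady than others. The share of CesA-1 ran from 8.07% to 8.58% and that of CesA-9 from 21.3% to 22.2%. The share of CesA-4 ran from 9.74% to 11.8% and that of CesA-6 from 8.94% to 10.6%. In percentage points the least steady share was that of CesA-2, which was 20.3% in replicate 2 and 21.8% to 23.8% in the other libraries. CesA-3 had the widest share relative to its size, 1.36% in replicate 3 and 1.92% to 2.13% elsewhere. Ranked within each library, CesA-8, CesA-1, CesA-7, CesA-5 and CesA-3 kept the third, sixth, seventh, eighth and ninth place in all 4. The pool is one of reads, and the reads of closely similar family members may be hard to assign: the handling of reads that match several genes is not described in the labels or the files. Of the 40 member values 1 was fractional, that of CesA-6 in replicate 4 at 1571.5 counts.

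**Figure D3:**
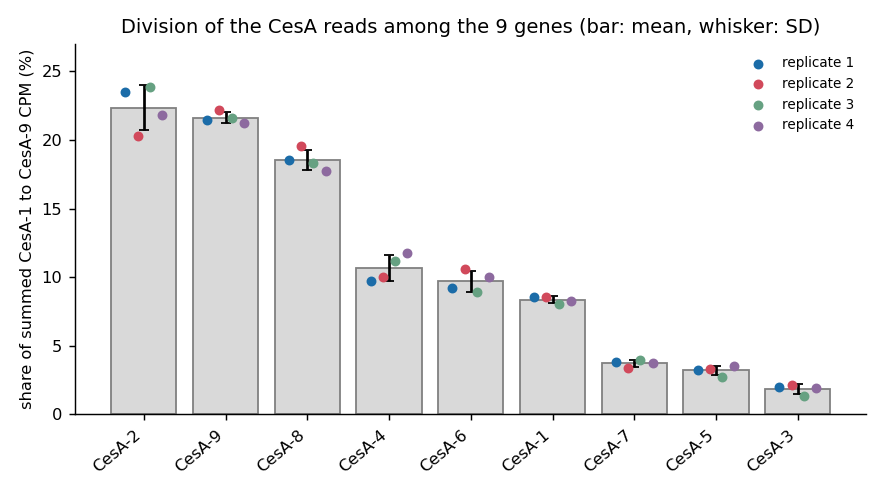
Share of the summed CesA-1 to CesA-9 CPM (percent) taken by each gene, with bars for the mean of 4 libraries, whiskers for the SD and points for the libraries. CesA-2, CesA-9 and CesA-8 each lie between 17.7% and 23.8%, and CesA-7, CesA-5 and CesA-3 each lie below 4%.

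The members were jointly low in replicate 2. There all 10 were below their own 4-library mean, with log2 deviations between -0.49 for CesA-2 and -0.11 for CesA-3. In replicate 1, 8 of the 9 synthase genes were above their own mean, and bk4 was below it at -0.13. In replicate 3, 7 of the 9 synthase genes and bk4 were above. Replicate 2 was the lowest library for 9 of the 10 members, where it was the lowest for 40.4% of the 21039 expressed genes. The low values there were not particular to the members. Other cell wall genes described below were also lowest in replicate 2, among them Bk2L3, Bk2L4, chiA, expB2, sus1 and SH-1. Those with another lowest library included CSLD1, chiB, EXPA5, expa2, Cel3 and Cel16.

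In replicate 2 CesA-2 reached 65.1% of its mean in the other 3 libraries, CesA-7 65.1%, CesA-4 68.2%, bk4 81.6% and CesA-3 90.3%, while the median over all expressed genes was 93.5%. Replicate 2 was also the shallowest library, and the part of its depth in these values was not tested. On the scale of the median gene, which removes the shift shared by all genes, the 9 synthase genes were still all below their own mean there, with a median deviation of -0.21 log2 units, against -0.30 on the CPM scale.

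The coefficient of variation over 4 libraries ran from 8.37% for CesA-6 to 21.2% for CesA-2. For genes with a mean count within 2-fold of each member, the median coefficient of variation was 10.6% to 11.6%, and 9 of the 10 members exceeded it, the exception being CesA-6. That count rests on replicate 2: without it 3 members, CesA-2, bk4 and CesA-3, exceeded the like genes' medians of 8.62% to 9.47%, a comparison added after the data were seen. Counting error alone would give 1.73% for CesA-2 and 6.15% for CesA-3. Without replicate 2 the coefficient of variation was 10.3% for CesA-2, 12.02% for bk4 and 18.2% for CesA-3, against 21.2%, 14.1% and 16.0% with it, and the other 7 members lay between 0.742% and 8.23%.

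**Figure D4:**
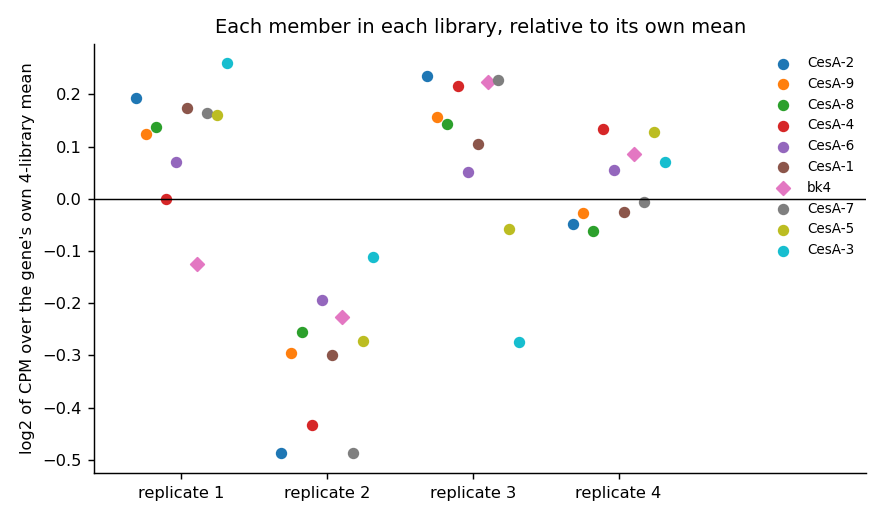
Log2 of the CPM of each member over its own mean of 4 libraries, by replicate, with circles for the synthase genes and diamonds for bk4. All 10 points of replicate 2 lie below 0, between -0.49 and -0.11, and bk4 lies apart from the synthase genes in replicate 1 at -0.13.

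Relative to the synthases, bk4 had 0.0738 times their summed reads, a log2 ratio of -3.76 ± 0.18 (SD, n = 4). The ratio was negative in 4 of 4 libraries, but it sets a single gene against a sum over 9 genes. The exact sign-flip permutation test (two-sided, p = 0.125, the smallest that 4 libraries give) therefore decides nothing about bk4. By library the log2 ratio was -4.02 in replicate 1 and -3.69 to -3.65 in the others. Against the mean synthase gene bk4 had 0.664 times the reads, with a range of 0.554 to 0.715 times. Transcript length was not corrected, so these ratios do not rank bk4 and the synthase genes in molecules. The reads of bk4 lay within the range of single synthase genes, next to CesA-1, which was higher in 4 of 4 libraries by 0.18 ± 0.20 log2 units.

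The secondary wall synthase genes were close to the limit of detection. The 9 primary wall genes had 18698, 8404, 17785 and 15710 counts in replicates 1 to 4, against 8, 7, 15 and 9 counts for cesa10, cesa11 and CesA12 together. The groups were far apart in every library, with a log2 ratio of 10.60 ± 0.47 (SD, n = 4), 1552-fold. The exact sign-flip permutation test, two-sided, gave p = 0.125, the smallest that 4 libraries give. This ratio sets a sum over 9 genes against a sum over 3, so it is not a ratio per gene. The secondary wall genes held 39 of 60636 synthase counts over the 4 libraries, 0.0643% with a 95% exact Clopper-Pearson interval of 0.0457% to 0.0879% that covers counting error only. cesa11 (GeneID 542139) had 24 of these counts, CesA12 (GeneID 542514) had 14 and cesa10 (GeneID 542685) had 1. None of the 3 passed the expression filter. CesA13 had no count in any library, and its level could still be as high as 0.0584 CPM, that of 3 counts over all 4. A root tip is a mixture of cell types, and in such a sample few cells with many transcripts cannot be told apart from many cells with few.

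Other genes of the cell wall gave the members a context. They were matched by symbol or synonym, so each list covers only the genes that carry such a name. Among the COBRA-like genes, which encode membrane-anchored proteins that act in cellulose deposition, Bk2L3 was at 203 ± 28.8 CPM and Bk2L4 at 69.4 ± 8.38 CPM (SD, n = 4), and both lay above the median gene by edgeR (adjusted p = 3.24e-15 and 6.07e-10). Bk2L6 stood at 7.77 ± 0.31 CPM without passing. bk2 itself, the brittle stalk gene of secondary walls, had 0 counts in all 4 libraries, as had Bk2L5 and Bk2L8, and Bk2L7 had 2. Of the 7 genes on this list 3 were expressed and tested, and 2 of them lay above and 0 below, beside 25.6% and 26.9% of all genes tested.

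Both cellulose synthase-like genes that could be named lay above the median gene, as did 25.6% of all genes tested. A list this short does not describe the wider family. CSLD1, which maize needs for normal cell division in the epidermis, stood at 113 ± 7.44 CPM (edgeR adjusted p = 4.97e-13), and CslF6-1, of the family that makes the mixed-linkage glucan of grass walls, at 95.02 ± 21.1 CPM (edgeR adjusted p = 7.44e-11). Their reads were those of the middle tier of CesA genes. Unlike 9 of the 10 members, CSLD1 was not lowest in replicate 2, where it had 120 CPM against 104 to 119 CPM in the other libraries, while CslF6-1 was lowest there at 65.7 CPM.

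Sucrose synthase splits sucrose into fructose and UDP-glucose, the substrate of cellulose synthase. sus1 had 1289, 755, 783 and 785 CPM in replicates 1 to 4 and SH-1 had 360, 244, 263 and 253 CPM. Both lay above the median gene (edgeR adjusted p = 1.93e-18 and 9.32e-16), as did 25.6% of all genes tested. The high library of sus1 and SH-1 was replicate 1, and sus2 was not expressed, with 51.5 counts over 4 libraries. No UDP-glucose pyrophosphorylase or dehydrogenase gene could be matched by name.

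The chitinases, the wider family of bk4, differed widely in reads. chiA was at 427 ± 98.0 CPM, above the median gene (edgeR adjusted p = 7.95e-17), chiI at 24.8 ± 6.09 CPM and chiB at 15.2 ± 4.01 CPM, neither passing, and chn1 had 15 counts over 4 libraries. In the list of 4, 3 were tested and 1 lay above, a share near the 25.6% of all genes tested, and 0 lay below. bk4 had more reads than chiI, chiB and chn1 and fewer than chiA in every library. The value of chiA was fractional in 1 library, so it was not in the set where only genes with whole values were kept.

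Of 16 expansin genes, whose products loosen walls during growth, 11 were expressed; 5 lay above the median gene, 3 lay below it and 3 passed in neither direction, beside 25.6% above and 26.9% below among all genes tested. The share below is near that of all genes. expB2 led at 163 ± 40.3 CPM, followed by EXPA5 at 137 ± 14.8 CPM, and expB6 was the lowest expressed at 3.77 ± 1.91 CPM. EXPB1, EXPB9 and EXPB10 had 0 counts, EXPB11 had 1 and expB7 had 7. By edgeR the call of expA3 (adjusted p = 0.0377) was lost without replicate 3 or 4 (0.809 and 0.0636), and that of expB5 (0.00672) without replicate 1 (0.0593). All 3 calls below, those of expB4, expB5 and expB6, were lost when unfiltered genes set a lower median (edgeR adjusted p = 1, 1 and 0.842). The xyloglucan endotransglycosylase genes xth1 and xet1, which recut wall glucans, had 8 and 3 counts over the 4 libraries and were not expressed.

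Of 9 cellulase genes 2 were expressed. Cel3 stood at 17.3 ± 2.55 CPM without passing, and Cel16 lay below the median gene at 6.03 ± 0.72 CPM (edgeR adjusted p = 0.0496), a call that was lost without replicate 1, 2, 3 or 4 (0.264, 0.0726, 0.0928 and 0.0544). No gene named as KORRIGAN, the membrane-bound cellulase of the cellulose synthase complex in Arabidopsis, was found by name.

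**Figure D5:**
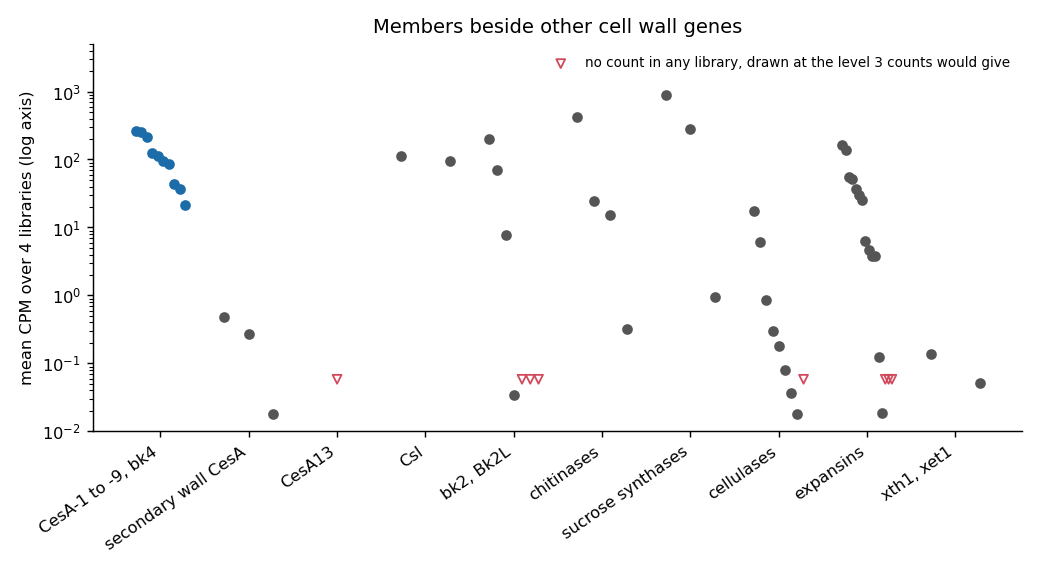
Mean CPM over 4 libraries (log axis) of the members (blue) and of the other named cell wall genes by list (grey), with open triangles for genes that had no count in any library, drawn at the 0.0584 CPM that 3 counts over all libraries would give. The members lie between 21.1 and 261 CPM, and the 3 secondary wall CesA genes lie below 0.5 CPM.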

How the data were processed

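Ribosomal RNA was depleted from total RNA, and directional libraries with unique molecular identifiers were made, per the labels' protocols. The deposited values are estimated counts per NCBI GeneID with no scaling; HTSeq, UMI-tools, STAR 2.7.10b, Trimmomatic, SAMtools and deepTools are named per the submitters' processing notes. For their settings, the genome build, the strand setting and any collapsing of tagged duplicates, the sources used here give nothing. Uncollapsed duplicates would make counting errors too small. A series table with 5 columns of other names was not used.

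Values were rounded for tests (3062 genes had a fraction, tolerance 1e-06), and 21039 genes passed edgeR's filterByExpr (minimum count 10, minimum total 15). An intercept-only quasi-likelihood model (edgeR 4.0.16) took each library's median expressed protein-coding gene as offset, and the F statistic compared the fit with the closer of both 2-fold bounds, with Benjamini-Hochberg adjustment at 0.05. It was tested on simulated data. Alternatives used DESeq2 1.42.0 and limma 3.58.1, other scalings and filters, and each library left out. The correction for coding length set as the first choice could not be made, because no protein or transcript lengths were at hand, and genes were ranked in reads. Names came from the RefSeq table of Zm-B73-REFERENCE-NAM-5.0, which held 48127 of 48174 GeneIDs. Named genes were all members, all CesA genes numbered 10 or higher and, in each other list of cell wall genes, the 2 highest and the lowest expressed. Genes of such a list that were not expressed were named where there were 5 or fewer. Of the marker genes only some were named. expA3, expB4 and expB5 were named after their values were seen. Members and lists were chosen with earlier results of these data known, and 12 names that fitted a list pattern but belong to cystatin, pigment or flavonoid genes were dropped. The labels call the samples biological replicates without saying which seedlings each pooled.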

Additional observations from a re-analysis of the deposited data

Results flagged for a closer look

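Of 44 quantities examined over the 4 libraries, 5 had 1 library far from the other 3 relative to the whole range. Chance gives about 1 in 20 such groups. CesA-6 was low in replicate 2, at 97.2 CPM, where the other libraries lay between 115 and 117 CPM. The log2 ratio of bk4 to the summed synthase genes was low in replicate 1, at -4.02, where the others lay between -3.69 and -3.65. Replicate 1 also held the high values of sus1, 1289 CPM against 755 to 785 CPM, and of SH-1, 360 CPM against 244 to 263 CPM. The expansin gene expa2 was high in replicate 2, at 66.1 CPM against 45.2 to 46.7 CPM.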

How the results depend on the processing

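Of the members, 9 lay above and 0 below the median gene in the main analysis. The numbers were the same without each library in turn and with TMM or DESeq2 scaling, the DESeq2 test or limma. Without the 2-fold bound or without the expression filter all 10 lay above, CesA-3 being added (log2 ratio 0.53 and 1.38). With genes of whole values only, 8 lay above, since CesA-6 was not in that set. Over all genes, 9312 lay above and 9913 below without the bound, and 8674 (28.4%) and 12598 without the filter, which lowers the median gene, against 5384 and 5668. Leaving out 1 library gave 5163 to 5341 above and 5381 to 5641 below. Without CesA-6 the shares were by construction larger: CesA-2 24.7%, CesA-9 23.96%, CesA-8 20.5%, CesA-4 11.8%, CesA-1 9.26%, CesA-7 4.11% and CesA-5 3.55%. The log2 ratio of primary to secondary wall synthase genes was 10.4 to 10.7 with 1 library left out, and that of bk4 to the synthases -3.80 to -3.67. The number of pairs in a fixed order was 43 to 45. Without replicate 2, 3 members and not 9 varied more than the median of like genes. The alternatives that changed the length correction were not run. No paired analysis was possible because the labels give 1 group. Depth limits the secondary wall genes, at 1 to 24 counts over 4 libraries.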
